A study of Arabidopsis thaliana with 6 samples.

Results

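Wild-type Arabidopsis thaliana seedlings (Col) kept for 7 d on plates with melatonin (MT) at 10 nM were compared with seedlings kept on plates with indole-3-acetic acid (IAA) at 1 nM. The comparison took the 2 MT and the 2 IAA libraries, 4 of the 6 RNA-seq libraries measured, over all genes. The 2 control libraries, from plates with 0.1% ethanol, gave a reference level and shared the estimate of spread. Seedlings were 4 d old when moved, and both compounds had been dissolved in ethanol. The doses differed, so a difference between the groups is one between these 2 treatments and not between the compounds at a matched dose. The control columns carry 72 h in their names while their titles say 7 d. The labels name seedlings as the tissue, whereas the series design names rosette leaves. The labels do not say whether replicates were separate cultures. Each p-value below therefore speaks only of how far these libraries spread, and that spread may be technical.

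Both compounds are indoles that plants make from tryptophan. IAA carries an acetic acid side chain, and melatonin carries a methoxy group on the ring and an N-acetylated aminoethyl side chain. IAA, the main natural auxin, is bound by TIR1/AFB receptors, which then mark the Aux/IAA repressors for degradation and so release the transcription of early auxin genes such as Aux/IAA, GH3 and SAUR. Melatonin is known in plants mainly from work on stress tolerance and root growth, and CAND2 has been proposed as its receptor. Jasmonate, a wound hormone, drives storage protein genes in leaves, and myrosinases release defence compounds from glucosinolates.

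Total counts ranged from 40087221 to 65558371 per library, and 21267 of 27978 genes passed the filter on low counts. Levels are given as CPM (reads relative to a library's total, scaled by TMM factors), for replicate 1 and then replicate 2. The 2 libraries of each treated group differed from each other. In MT replicate 1, plastid-encoded genes took 0.285% of counts (95% Wilson interval 0.283 to 0.286%), against 0.0196 to 0.0244% in the other 5 libraries. Of 80 plastid genes tested, 79 were above 0 with MT, with a median log2 difference of 1.70, which was 0.13 without MT replicate 1. In IAA replicate 2, the root myrosinase genes BGLU34 and BGLU35 were at 11.0 and 10.0 CPM, against 0.864 and 0.786 CPM in IAA replicate 1. By a chi-square over all genes, divided by its degrees of freedom, MT replicate 2 lay nearer to IAA replicate 1 (11.6) and IAA replicate 2 (12.6) than to MT replicate 1 (17.2). The IAA libraries were at 13.7 from each other. By this measure each lay nearer to MT replicate 2 than to the other IAA library. The Pearson correlation of log2 CPM gave another order for IAA replicate 2. It was 0.9859 between the IAA libraries and 0.9844 between IAA replicate 2 and MT replicate 2. For IAA replicate 1 the order held, with 0.9863 to MT replicate 2. Whether the differing totals of the libraries shaped the chi-square was not tested. Leaf and root markers were both present. The 29 photosynthesis markers summed to 95388 to 104020 CPM per library. The 11 markers of the root endodermis summed to 64.8 to 119 CPM, and the 13 of root hairs to 18.8 to 82.7 CPM. Of the leaf meristem markers, CLV3 and WUS did not pass the filter. In such whole samples, fewer cells of a type and less RNA per cell cannot be told apart.

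Between MT and IAA, 4 genes passed edgeR's quasi-likelihood test at a Benjamini-Hochberg adjusted p under 0.05, which is 0.0188% of the genes tested. The leaf storage protein gene VSP2, the myrosinase gene TGG2 and AT1G52000, annotated as a mannose-binding lectin superfamily protein, were lower with MT (0.0141% of genes). The mitogen-activated protein kinase gene MPK3, which acts in stress and immune signalling, was higher (0.0047%). An unadjusted p under 0.05 was given to 2235 genes, 1271 higher and 964 lower with MT. The median log2 difference over all genes was -0.01, and 48.4% of genes were above 0.

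VSP2 was at 38.6 and 35.5 CPM with IAA and at 13.7 and 12.1 CPM with MT. Both MT libraries lay far below both IAA libraries and a little below the control libraries, at 15.01 and 14.52 CPM. The log2 difference, MT minus IAA, was -1.52 ± 0.10 (SE), a 2.86-fold lower level (edgeR adjusted p = 0.00423). TGG2 was at 430 and 439 CPM with IAA and at 249 and 259 CPM with MT. The MT libraries lay beside the control libraries, at 249 and 243 CPM, and apart from the IAA libraries. The log2 difference was -0.78 ± 0.06 (SE), a 1.71-fold lower level (edgeR adjusted p = 0.00546). AT1G52000 was at 29.3 and 26.3 CPM with IAA and at 11.1 and 12.7 CPM with MT. Its control libraries, at 18.07 and 17.36 CPM, lay between the treated groups, which did not overlap. The log2 difference was -1.23 ± 0.11 (SE), a 2.34-fold lower level (edgeR adjusted p = 0.00912).

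MPK3 was at 90.4 and 89.4 CPM with IAA and at 146 and 147 CPM with MT. All 4 treated libraries lay above the control libraries, at 74.7 and 74.5 CPM, and the MT libraries were highest. The log2 difference was 0.70 ± 0.06 (SE), a 1.63-fold higher level (edgeR adjusted p = 0.00735). In the TAIR10.1 annotation AT3G45645 overlaps MPK3 on the opposite strand. Whether strand was used in counting is not given in the sources used here, so reads of the pair cannot be told apart.

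The calls rested on few libraries. Without MT replicate 1, VSP2 (edgeR adjusted p = 0.0387), TGG2 (0.0387) and MPK3 (0.0407) passed, and AT1G52000 did not (0.0982). Without IAA replicate 2, VSP2 (0.0195), TGG2 (0.031) and AT1G52000 (0.0309) passed, and MPK3 did not (0.0612). With both of these libraries left out VSP2 was the only one of the 4 to pass (0.0247), and without IAA replicate 1 none of the 4 did (0.0608 for each); edgeR then called 0 genes, with 2432 at an unadjusted p under 0.05. Their log2 differences moved little, from -1.67 to -1.43 for VSP2, -0.81 to -0.73 for TGG2, -1.32 to -1.14 for AT1G52000 and 0.70 to 0.71 for MPK3 over the fits with libraries left out.

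**Figure D1:**
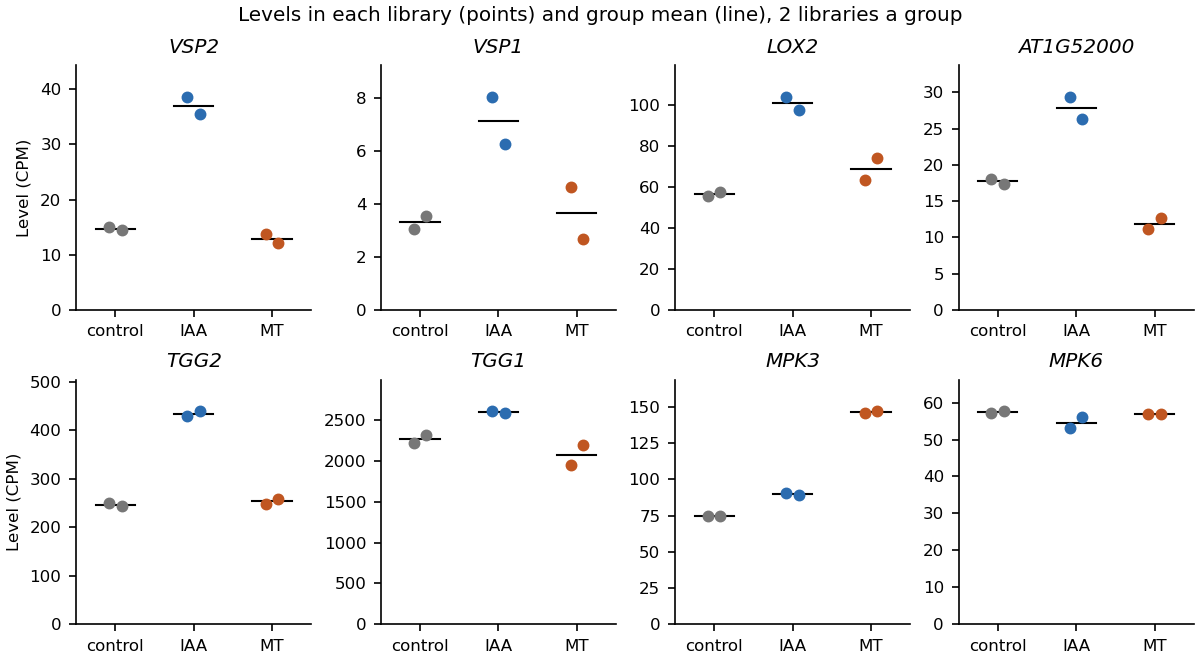
Level in CPM (vertical axes, from 0) of 8 genes in control, IAA and MT seedlings. Each point is 1 library and each line a group mean. VSP2, TGG2 and AT1G52000 are highest in both IAA libraries, MPK3 is highest in both MT libraries at 146 and 147 CPM, and MPK6 lies between 53.1 and 57.6 CPM in all 6.

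The 300 bases around the start of each of the 4 genes (250 before to 50 after it, RefSeq, TAIR10.1) are shown because these genes carry the comparison. They were searched on both strands for the G-box CACGTG, the T/G-box AACGTG and the W-box TTGAC, and matches are in capitals. No match of one motif overlapped a match of another. The locations are chr5:8502175-8502474 (minus strand) for VSP2, chr5:9072458-9072757 (plus) for TGG2, chr1:19336086-19336385 (minus) for AT1G52000 and chr3:16756321-16756620 (plus) for MPK3.
VSP2: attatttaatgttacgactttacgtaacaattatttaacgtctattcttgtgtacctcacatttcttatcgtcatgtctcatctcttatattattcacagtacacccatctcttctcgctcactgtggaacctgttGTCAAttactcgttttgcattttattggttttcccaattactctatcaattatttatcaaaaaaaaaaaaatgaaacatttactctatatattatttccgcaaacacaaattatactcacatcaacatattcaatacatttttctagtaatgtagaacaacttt
TGG2: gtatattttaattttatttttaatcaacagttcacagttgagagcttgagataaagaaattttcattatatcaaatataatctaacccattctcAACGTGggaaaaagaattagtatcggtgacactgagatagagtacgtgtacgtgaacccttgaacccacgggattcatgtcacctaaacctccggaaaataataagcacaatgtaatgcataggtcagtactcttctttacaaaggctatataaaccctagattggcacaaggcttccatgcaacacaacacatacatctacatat
AT1G52000: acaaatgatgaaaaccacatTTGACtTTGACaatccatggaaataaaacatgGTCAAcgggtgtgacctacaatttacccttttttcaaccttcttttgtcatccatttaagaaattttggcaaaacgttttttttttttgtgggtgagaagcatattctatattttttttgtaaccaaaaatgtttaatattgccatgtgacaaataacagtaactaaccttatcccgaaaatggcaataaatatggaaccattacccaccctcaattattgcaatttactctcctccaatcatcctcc
MPK3: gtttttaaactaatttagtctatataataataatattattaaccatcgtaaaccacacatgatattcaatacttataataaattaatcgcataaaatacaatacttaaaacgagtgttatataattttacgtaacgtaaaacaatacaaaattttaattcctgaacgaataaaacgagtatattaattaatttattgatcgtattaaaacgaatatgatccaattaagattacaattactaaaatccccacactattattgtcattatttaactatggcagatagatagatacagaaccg
VSP2 had 1 W-box, TGG2 had 1 T/G-box, AT1G52000 had 3 W-boxes and MPK3 had none of these letters. Of 27443 promoters of the same length, 50.5% held a W-box, 8.95% a T/G-box and 7.68% a G-box. These matches describe the letters and were not tested as sites.

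The near relatives of the called genes gave smaller or less certain differences. VSP1 was at 8.03 and 6.27 CPM with IAA and at 4.63 and 2.67 CPM with MT. The groups did not overlap, and the log2 difference of -0.97 ± 0.27 (SE) did not pass (edgeR adjusted p = 0.305). The coding sequences of VSP1 and VSP2 share 89.5% of aligned bases, with a longest shared run of 54 bases, so reads could be split between them. TGG1, the other leaf myrosinase gene, was at 2608 and 2585 CPM with IAA and at 1956 and 2191 CPM with MT. The groups did not overlap, and the log2 difference was -0.32 ± 0.07 (SE; edgeR adjusted p = 0.208, DESeq2 adjusted p = 0.0031). TGG1 and TGG2 share 82.2% of aligned bases. MPK6, which often acts beside MPK3, was at 53.1 and 56.1 CPM with IAA and at 57.0 and 57.0 CPM with MT (log2 difference 0.06 ± 0.06 SE).

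The number of calls depended on the test. DESeq2, run as an alternative on the same counts, called 186 genes higher with MT (0.968% of the 19205 genes it tested) and 71 lower (0.37%), the 4 genes above among them. In all 257 the 2 groups did not overlap. Over all genes tested, both MT libraries lay above both IAA libraries in 19.8% of genes and below them in 20.4%. Of the 186 genes called higher by DESeq2, 134 had an IAA mean nearer to control than the MT mean, and of the 71 called lower, 46 had an MT mean nearer to control. Nearness was taken on the log2 scale with 0.1 CPM added to each mean. It was not counted over all genes, so these counts cannot say whether the called genes differ from the rest. DESeq2 called 60 genes without MT replicate 1, of which 44 were among the 257, and 52 without IAA replicate 2, of which 28 were. It called 285 without MT replicate 2, of which 95 were among the 257, and 214 without IAA replicate 1, of which 92 were. The genes described from here on did not pass edgeR's test, and their DESeq2 calls are those of the alternative.

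**Figure D2:**
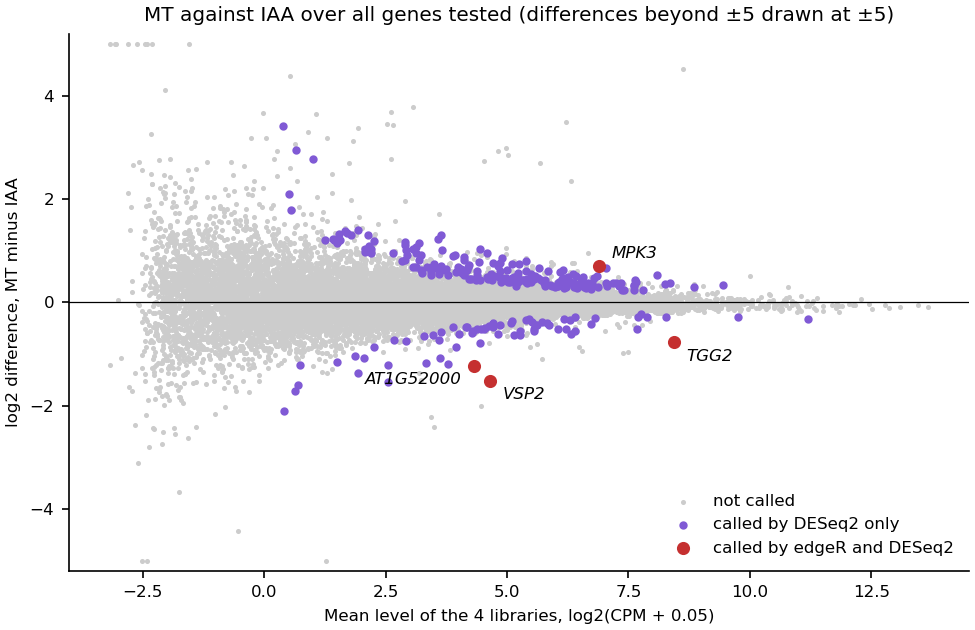
Log2 difference, MT minus IAA (vertical axis), against the mean level of the 4 libraries as log2 of CPM (horizontal axis) for the 21267 genes tested. Red points are the 4 genes called by edgeR and DESeq2, purple points those called by DESeq2 alone, and most genes lie near 0.

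Among genes called higher by DESeq2 with a mean of at least 1 CPM, the largest differences were in organelle genes and in genes of low level. The plastid genes ATCG01080, ATCG00500 and ATCG00530 and the mitochondrial gene ATMG00410 had log2 differences of 3.42, 2.94, 1.40 and 2.78. Their levels were high in MT replicate 1 alone (ATCG01080 at 4.17 CPM, against 0.399 CPM in MT replicate 2). AT4G14780, annotated as a protein kinase superfamily protein, was at 0.632 and 0.403 CPM with IAA and at 2.47 and 2.02 CPM with MT. MIOX2, a myo-inositol oxygenase, was at 6.80 and 7.61 CPM with IAA and at 21.3 and 14.2 CPM with MT (log2 difference 1.31 ± 0.27 SE, edgeR adjusted p = 0.208, DESeq2 adjusted p = 0.000979). UMAMIT4, of an amino acid transporter family, was at 1.59 and 1.68 CPM with IAA and at 4.53 and 3.64 CPM with MT. The MT libraries were the highest of all 6 for each of these 3 genes. CYP705A20, UGT76D1, LEP and AT5G47740 had log2 differences of 1.79, 1.38, 1.35 and 1.31. Reads of CYP705A20 and AT5G47740 could be shared with genes that overlap them, AT3G20120 and AT5G47750.

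Among genes called lower by DESeq2, CYP735A2, a cytochrome P450 of trans-zeatin synthesis, was at 2.498 and 2.261 CPM with IAA and at 0.930 and 0.624 CPM with MT. Its MT libraries lay within or below the control level of 0.901 and 1.22 CPM, and the log2 difference was -1.60 ± 0.35 (SE, DESeq2 adjusted p = 0.0229). BAM5, a beta-amylase, was at 10.3 and 5.91 CPM with IAA and at 3.64 and 3.34 CPM with MT, near the control level of 2.38 and 3.71 CPM. PRB1, annotated as a basic pathogenesis-related protein, was at 10.7 and 16.8 CPM with IAA and at 5.28 and 6.96 CPM with MT, below control. AHP4, a phosphotransfer protein of the cytokinin pathway family, was at 3.48 and 4.21 CPM with IAA and at 1.42 and 2.04 CPM with MT. AT3G25570, an adenosylmethionine decarboxylase family gene of polyamine synthesis, was at 14.4 and 18.8 CPM with IAA and at 7.54 and 8.15 CPM with MT (log2 difference -1.08 ± 0.16 SE). The neighbouring locus AT3G25572 was at 3.98 and 7.03 CPM with IAA and at 8.13 and 11.1 CPM with MT. The sum of AT3G25570 and AT3G25572 overlapped between the groups, at 18.4 and 25.9 CPM with IAA and 15.7 and 19.3 CPM with MT. The IAA and MT libraries of CYP735A2, BAM5, PRB1, AHP4 and AT3G25570 did not overlap, which was a condition for naming them. AT2G37900, AT5G50010, HISN6B, AT4G22520, AT4G17470 and AT4G35810 had log2 differences of -2.10, -1.72, -1.37, -1.20, -1.21 and -1.07.

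Just outside the threshold stood 3 genes with an edgeR adjusted p between 0.05 and 0.10, named after their values were seen. AT3G62550, annotated as an adenine nucleotide alpha hydrolase-like protein, was at 33.0 and 28.2 CPM with IAA and at 55.4 and 51.4 CPM with MT. The MT libraries lay at the control level of 54.3 and 50.6 CPM and the IAA libraries below it (log2 difference 0.80 ± 0.09 SE, edgeR adjusted p = 0.0699). ELI3-1, a cinnamyl alcohol dehydrogenase family gene, was at 77.0 and 79.5 CPM with IAA and at 56.1 and 53.3 CPM with MT, beside control at 56.7 and 57.7 CPM (-0.52 ± 0.06 SE, adjusted p = 0.0812). AT5G60548 was at 9.14 and 8.21 CPM with IAA and at 2.71 and 3.27 CPM with MT (-1.54 ± 0.19 SE, edgeR adjusted p = 0.0762). Its sum with the neighbouring locus AT5G60550 varied less, at 30.3 and 31.1 CPM with IAA and 33.7 and 34.8 CPM with MT. How reads were assigned between these loci was not tested.

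Jasmonate and myrosinase genes were read by their lists, whose members were chosen with earlier results of these data known. Counts of called members are therefore descriptions and not independent support. Of 14 jasmonate output genes tested, 2 were called lower by edgeR (VSP2 and AT1G52000), against 0.0141% of all genes. DESeq2 called 3 of the 14 lower, against 0.37% of all genes, and 3 were above 0. The median log2 difference was -0.39, against -0.01 over all genes, and it ran from -0.72 without MT replicate 1 to -0.17 without MT replicate 2. LOX2, a chloroplast lipoxygenase of jasmonate synthesis, was counted in the output list and not in the synthesis list. It was at 104 and 97.8 CPM with IAA and at 63.6 and 74.1 CPM with MT (log2 difference -0.55 ± 0.08 SE, edgeR adjusted p = 0.175, DESeq2 adjusted p = 3.16e-05). All 4 treated libraries were above control, at 55.7 and 57.7 CPM. The transcription factor genes NAC3 and NAC019 went the other way in value (0.64 and 0.70). Among 24 genes of jasmonate synthesis and signalling the median was 0.01 and 12 were above 0. DESeq2 called 1 of the 24 higher, against 0.968% of all genes it tested, and 0 lower. The 1 called was the lipoxygenase gene LOX4, at 10.9 and 9.89 CPM with IAA and at 14.3 and 17.7 CPM with MT (0.62 ± 0.14 SE, edgeR adjusted p = 0.226, DESeq2 adjusted p = 0.0291). MYC2, the master transcription factor of the pathway, was at 80.8 and 88.0 CPM with IAA and at 94.6 and 96.0 CPM with MT (0.18 ± 0.12 SE, edgeR adjusted p = 0.646). Of 23 myrosinases and partner proteins 16 were below 0, with a median of -0.28. Against 0.0141% of all genes, 2 of the 23 were called lower by edgeR (TGG2 and AT1G52000, which is also in the jasmonate output list). That median was -0.10 without IAA replicate 2 and -0.10 without MT replicate 2, and -0.40 without MT replicate 1. DESeq2 called 4 of the 23 lower, against 0.37% of all genes, and 1 higher, against 0.968%. ESM1, a myrosinase-associated protein, was at 329 and 344 CPM with IAA and at 277 and 278 CPM with MT (DESeq2 adjusted p = 0.0108). The 1 called higher was PEN2, an atypical myrosinase of pathogen defence. It was at 144 and 118 CPM with IAA and at 176 and 165 CPM with MT (edgeR adjusted p = 0.265, DESeq2 adjusted p = 0.0196). MYB51, a regulator of indole glucosinolate synthesis, was at 14.0 and 17.7 CPM with IAA and at 26.7 and 27.7 CPM with MT (0.78 ± 0.13 SE, edgeR adjusted p = 0.189, DESeq2 adjusted p = 0.000172), whereas the 19 genes of glucosinolate synthesis had a median of -0.05, which ran from -0.18 to 0.05 with 1 of the 4 libraries left out.

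Touch and rapid wounding genes, which respond within minutes to mechanical and wound signals, were higher with MT in value. Of 17 tested, 16 were above 0, in 12 both MT libraries lay above both IAA libraries, and the median was 0.43. By edgeR 0 were called (9 higher and 0 lower at an unadjusted p under 0.05), and by DESeq2 5. Of all genes tested, 19.8% had both MT libraries above both IAA libraries, and DESeq2 called 0.968% higher. At an unadjusted edgeR p under 0.05, 1271 of all 21267 genes were higher. WRKY33, a defence transcription factor, was at 103 and 101 CPM with IAA and at 143 and 181 CPM with MT. TCH3, a calmodulin-like gene, was at 61.5 and 49.5 CPM with IAA and at 85.4 and 86.2 CPM with MT. WRKY46 was at 6.86 and 9.83 CPM with IAA and at 16.1 and 17.3 CPM with MT. In each of these 3 genes the order was control, IAA and MT without overlap, and their log2 differences were 0.67, 0.63 and 1.01 (edgeR adjusted p = 0.208 for each). The list median lay between 0.32 and 0.58 with 1 of the 4 libraries left out. In the MAP kinase list MPK3 was the 1 member of 17 called by either test, and the median was 0.04, or -0.04 without MT replicate 2. Over all genes, edgeR called 0.0047% higher and DESeq2 0.968%.

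In the immune and salicylic acid list 14 of 19 genes were above 0 and the median was 0.22. DESeq2 called 3 of them higher, against 0.968% of all genes it tested. PAD4, a lipase-like regulator of defence, was at 13.37 and 14.996 CPM with IAA and at 24.3 and 19.4 CPM with MT. RBOHD, the NADPH oxidase of the immune oxidative burst, was at 56.2 and 57.9 CPM with IAA and at 68.2 and 71.0 CPM with MT. Both genes had separate groups, with log2 differences of 0.63 and 0.29. SARD1, a regulator of salicylic acid synthesis, was at 1.60 and 1.90 CPM with IAA and at 3.72 and 4.39 CPM with MT. In the cold and abscisic acid list 13 of 15 genes were above 0 with a median of 0.30. ABI1, a protein phosphatase that restrains abscisic acid signalling, was at 284 and 283 CPM with IAA and at 352 and 382 CPM with MT (0.37 ± 0.06 SE, edgeR adjusted p = 0.208, DESeq2 adjusted p = 6.82e-05).

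Cell cycle and DNA replication genes were lower with MT than with IAA in value. Of 33 tested, 32 were below 0, in 26 both MT libraries lay below both IAA libraries, and the median was -0.45. By edgeR 0 were called (19 lower and 0 higher at an unadjusted p under 0.05), and by DESeq2 4. Of all genes tested, 20.4% had both MT libraries below both IAA libraries, and DESeq2 called 0.37% lower. At an unadjusted edgeR p under 0.05, 964 of all 21267 genes were lower. CDC20.1, which helps start anaphase, was at 23.1 and 25.9 CPM with IAA and at 18.5 and 15.6 CPM with MT. PLE, a microtubule-associated protein of cell division, was at 11.1 and 12.7 CPM with IAA and at 6.72 and 8.48 CPM with MT. TSO2, a ribonucleotide reductase subunit, was at 48.2 and 54.3 CPM with IAA and at 40.7 and 38.2 CPM with MT. In all 3 the groups were separate, and IAA replicate 2 was the highest library. Control was at 15.4 and 16.5 CPM for CDC20.1 and 40.4 and 43.3 CPM for TSO2. For PLE it was at 9.74 and 9.46 CPM, above both MT libraries. Averaged over the list, log2 CPM stood at 2.86 and 2.94 in control. With IAA this average reached 3.18 and 3.51, and with MT 2.87 and 2.99. On that average the MT libraries lay near control and the IAA libraries above it. The list median was -0.23 without IAA replicate 2 and -0.64 without IAA replicate 1. The root meristem markers moved with that library too: their median was -0.14 with all libraries and 0.61 without IAA replicate 2. Their part in the cell cycle values was not tested.

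**Figure D3:**
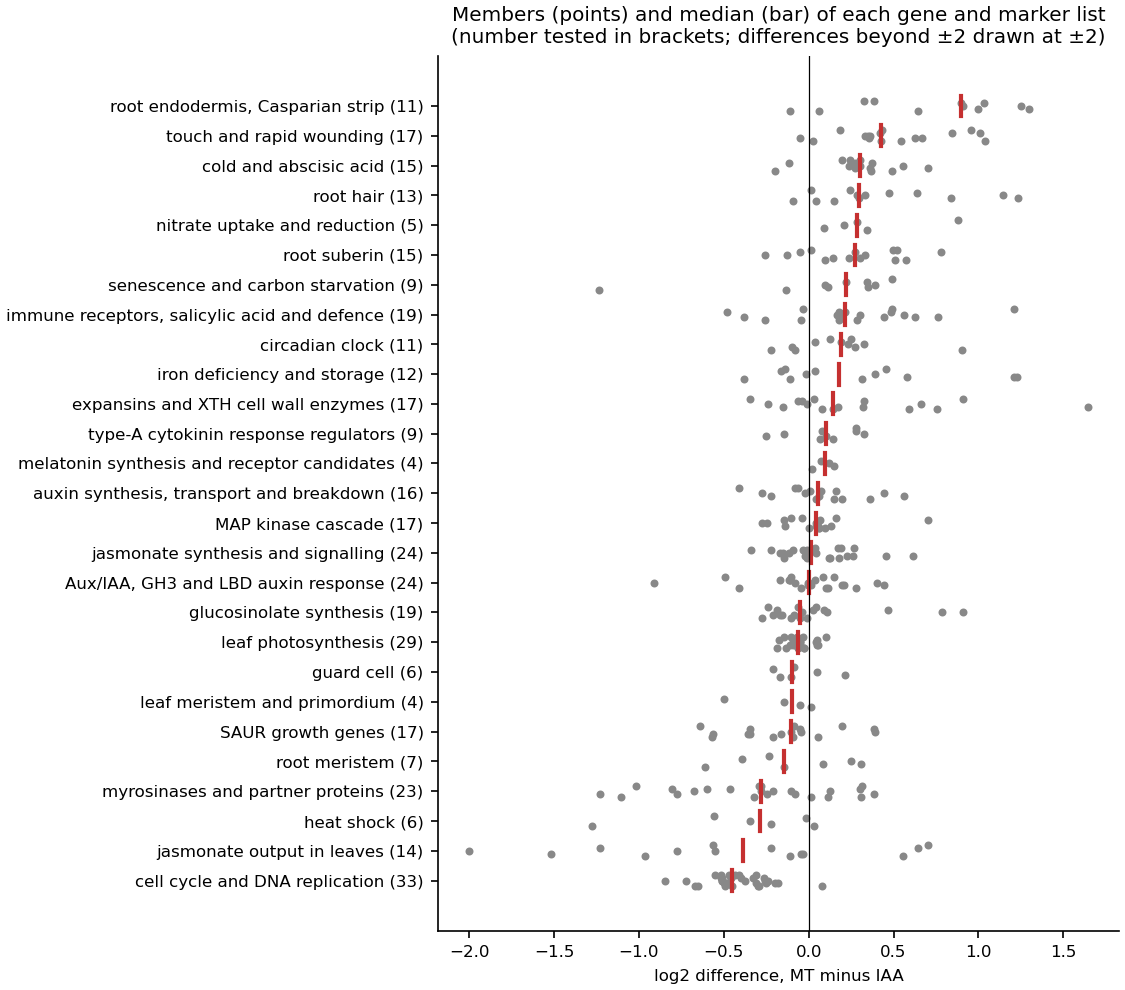
Log2 difference, MT minus IAA (horizontal axis), of each tested member (grey points) and the median (red bar) of the 27 gene and marker lists. Medians run from -0.45 for the cell cycle list to 0.89 for the root endodermis list.

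Early auxin genes showed no common direction between the 2 treatments. Of 24 Aux/IAA, GH3 and LBD genes 12 were above 0, the median was 0.00 on the log2 scale, and edgeR and DESeq2 each called 0 (2 higher and 0 lower at an unadjusted edgeR p under 0.05). IAA19, an Aux/IAA repressor gene, was at 8.74 and 7.61 CPM with IAA and at 9.001 and 6.808 CPM with MT. GH3.3, which conjugates IAA to amino acids, was at 7.43 and 9.40 CPM with IAA and at 7.16 and 9.68 CPM with MT. The groups of both genes overlapped. Of 17 SAUR genes 13 were below 0 with a median of -0.11. The SAUR median was -0.39 without IAA replicate 2 and above 0 without IAA replicate 1 (0.06) or MT replicate 2 (0.03). YUC3, a flavin monooxygenase of auxin synthesis, was at 1.28 and 2.08 CPM with IAA and at 2.57 and 1.97 CPM with MT, also with overlap. In the list of auxin synthesis, transport and breakdown 10 of 16 were above 0 with a median of 0.05, or -0.08 without MT replicate 1. Of the 4 melatonin genes edgeR and DESeq2 each called 0, also at an unadjusted edgeR p under 0.05. CAND2 was at 18.3 and 16.8 CPM with IAA and at 18.0 and 19.0 CPM with MT. AT4G35160, an N-acetylserotonin methyltransferase, was at 26.1 and 24.7 CPM with IAA and at 35.4 and 20.8 CPM with MT, and NSI, a serotonin N-acetyltransferase, at 59.5 and 56.0 CPM and at 54.8 and 62.5 CPM. The groups of CAND2, AT4G35160 and NSI overlapped. OMT1, a methyltransferase, was at 451 and 396 CPM with IAA and at 458 and 463 CPM with MT, without overlap (0.12 ± 0.07 SE, edgeR adjusted p = 0.591). All 4 were above 0, with a median of 0.10.

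Endodermis, suberin and root hair markers were higher with MT in value, mostly in MT replicate 1, whereas 3 of 7 root meristem markers were above 0. Of 11 endodermis genes 10 were above 0 with a median of 0.89, which was 0.31 without MT replicate 1. MYB36, the transcription factor of Casparian strip formation, was at 2.08 and 1.88 CPM with IAA and at 5.76 and 3.97 CPM with MT (1.296 ± 0.26 SE, edgeR adjusted p = 0.208, DESeq2 adjusted p = 0.00492). The peroxidase gene AT5G66390 was at 10.4 and 10.2 CPM with IAA and at 23.2 and 15.1 CPM with MT. In both genes MT replicate 1 was the highest library. Of 13 root hair genes 12 were above 0 with a median of 0.30. In 1 of the 13 both MT libraries lay above both IAA libraries, against 19.8% of all genes. The root hair median turned to -0.18 without MT replicate 1 and was 0.73 without IAA replicate 2. The mean log2 CPM of the list was 1.62 in IAA replicate 2 and 1.21 in MT replicate 2. The suberin median of 0.27 became 0.04 without MT replicate 1. Of 29 photosynthesis genes 24 were below 0 with a median of -0.06. The part of these root and organelle values in the other differences was not tested.

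The other lists held 0 genes called by edgeR. DESeq2 called 2 of 9 senescence genes, 1 of 5 nitrate genes and 1 of 11 clock genes higher, against 0.968% of all genes it tested. It called 0 genes lower in these lists, against 0.37% of all genes. All 5 nitrate genes tested were above 0 with a median of 0.29, or 0.13 without MT replicate 1. NIA1, a nitrate reductase, was at 625 and 598 CPM with IAA and at 735 and 815 CPM with MT, where control was higher than IAA too, at 880 and 796 CPM (0.34 ± 0.08 SE, edgeR adjusted p = 0.229, DESeq2 adjusted p = 0.00428). In the senescence list 7 of 9 were above 0 with a median of 0.22, or 0.05 without MT replicate 1, and SAG21 was at 83.7 and 74.4 CPM with IAA and at 123 and 98.9 CPM with MT. The clock list had a median of 0.19, with 8 of 11 above 0. PRR7, a repressor in the circadian clock, was at 159 and 154 CPM with IAA and at 184 and 187 CPM with MT, beside control at 169 and 185 CPM. Medians were 0.18 for the iron list (7 of 12 above 0), 0.14 for expansins and XTH enzymes (11 of 17) and 0.10 for type-A cytokinin response regulators (7 of 9). The iron median was -0.06 without MT replicate 2 and 0.34 without MT replicate 1, the expansin and XTH median 0.02 without MT replicate 1 and 0.36 without MT replicate 2, and the response regulator median 0.04 without IAA replicate 1 and 0.21 without IAA replicate 2. They were -0.28 for heat shock genes (1 of 6), -0.10 for guard cell markers (2 of 6) and -0.10 for leaf meristem markers (1 of 4). Without MT replicate 1 the guard cell and leaf meristem medians were 0.05 and 0.11, and without IAA replicate 1 the heat shock median was -0.05. At an unadjusted edgeR p under 0.05, 20 of the 79 genes tested in these 9 lists were higher and 4 lower, beside 1271 higher and 964 lower of the 21267 genes tested in all.

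**Figure D4:**
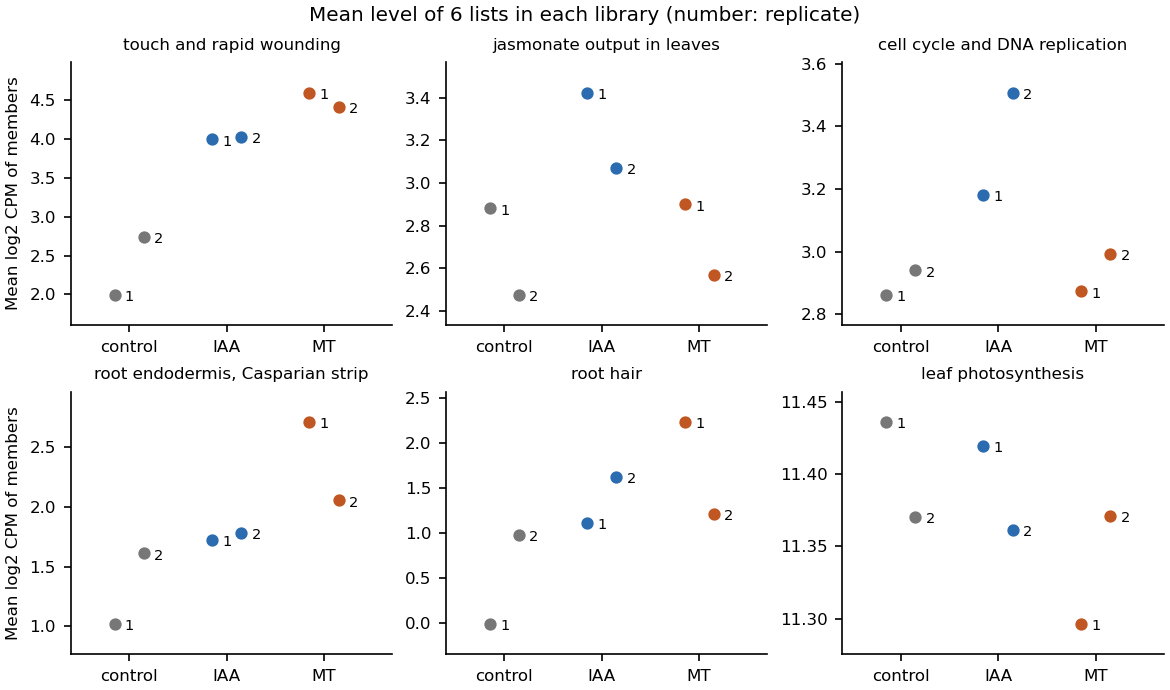
Mean log2 CPM of the members of 6 lists (vertical axes, each with its own range) in each library, with the replicate number beside the point. MT replicate 1 is the highest library for endodermis and root hair markers, and IAA replicate 2 is the highest for the cell cycle list.

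**Figure D5:**
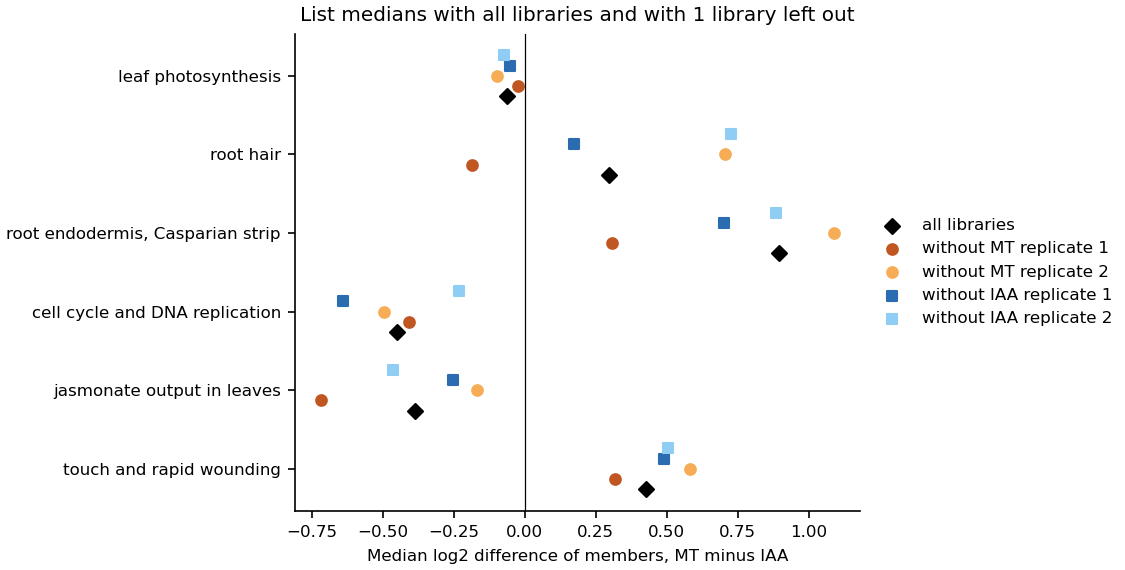
Median log2 difference, MT minus IAA (horizontal axis), of the same 6 lists with all libraries (diamonds) and with 1 library left out. The touch list stays between 0.32 and 0.58, and the root hair median changes sign without MT replicate 1.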

How the data were processed

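The deposited file holds raw counts of reads for each gene, as whole numbers that the authors had not normalized. It has 27978 rows, of which 27416 carry locus codes (26719 matched the TAIR10.1 gene table from RefSeq) and 562 are named newGene. Per the submitters' processing notes, the tools were HTSeq 0.6.1, TopHat2 2.0.12, Bowtie2 2.2.3 and DESeq, whose order and roles are not stated. Build, annotation and strand setting: not given in the sources used here.

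Samples were grouped by title. Genes were filtered with filterByExpr (6711 removed) and tested with edgeR 4.0.16 in R 4.3.3 (TMM factors, glmQLFit, glmQLFTest, all 6 libraries in 1 fit, MT minus IAA), with Benjamini-Hochberg adjustment over 21267 genes and a threshold of 0.05. The fit had 3 residual and 5.61 prior degrees of freedom, and its common biological coefficient of variation came to 0.123. Intervals and floors cover counting error only, and 3 counts correspond to 0.0458 to 0.0748 CPM.

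The test was tested on simulated data with known changes. It recovered them in repeated draws, and the share of false calls was close to the threshold when genes of like level shared a spread. That share was above the threshold when each gene was given its own estimated spread, so a call close to the threshold is less certain than its adjusted p.

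The members, the 27 lists (405 members) and the rules were chosen with earlier results of these data known. Named genes are those past the threshold, up to 12 per direction called only by DESeq2 1.42.0 (groups separate, mean of at least 1 CPM, same sign without MT replicate 1 and without IAA replicate 2), up to 3 per list by lowest p, and a fixed set of 11. Not all are described. Alternatives were other scaling factors, DESeq2, limma-voom (limma 3.58.1), other filters, thresholds and groups in the fit, a replicate block and leaving out libraries. Leaving out MT replicate 1 and IAA replicate 2 together, and each library under DESeq2, was chosen after seeing the data. Promoters and coding sequences were read with Python 3.11.15 and Biopython 1.88.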

Additional observations from a re-analysis of the deposited data

How the results depend on the processing

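The count of 4 genes (1 higher, 3 lower) was the same with RLE, upper-quartile or no scaling factors, limma-voom, filters at 1 or 5 CPM and without organelle genes. It was 257 (186 higher, 71 lower) with DESeq2, 13 (5 and 8) without a filter on low counts and 7 (2 and 5) at a threshold of 0.10. With 1 library left out it ran from 0 (without IAA replicate 1) to 55 (without MT replicate 2), with 0 to 50 higher and 0 to 6 lower. It was 7 without IAA replicate 2 (6 lower) and 5 without MT replicate 1. Without both MT replicate 1 and IAA replicate 2 it was 6, 3 of them higher and 1 among the 4. Most of the genes called without MT replicate 2 were plastid or mitochondrial genes, higher with MT. The cause of these shifts in the count was not tested.

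Replicate numbers did not pair the libraries (correlation of deviations 0.0119 between MT and IAA). With the replicate block the count was 5 (2 higher) over all 6 libraries and 44 (21 higher, 23 lower) over the MT and IAA libraries, and 5 in those 4 libraries without it.

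Of the single genes' values under the alternatives, 1957 kept direction and side of the threshold, 61 passed it newly, 9 no longer passed it and 20 changed sign. Genes named from DESeq2 calls had been required to keep their sign without MT replicate 1 and without IAA replicate 2. Most named genes did not pass the threshold in the main fit, so keeping their side of it says little. GH3.3 was at -8.15e-05 without a filter, and at -0.0023 and -0.0060 with the replicate block over all 6 and over 4 libraries. With libraries left out, log2 differences ran from -0.061 to 0.51 for GH3.17, -0.20 to 0.73 for AT1G14120, -1.54 to 0.46 for CUC2, -0.20 to 0.13 for KNAT1, -0.33 to 0.48 for AT4G35160, -0.074 to 0.62 for SAUR15, -0.36 to 0.14 for IAA19, -0.23 to 0.38 for GH3.3 and -0.075 to 0.11 for NSI. Of the list medians, 34 moved by more than a yardstick and 236 did not. The yardstick was the standard deviation of the list's median over the 4 pairings of an MT with an IAA library. It was taken from the same libraries that were left out, and other scaling factors and left-out control libraries were counted too. The 236 are therefore no measure of stability.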

Other observations

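Several neighbouring locus codes, chosen after their values were seen, differed in opposite directions while their sum varied less. AT5G60548 was at 9.14 and 8.21 CPM with IAA and at 2.71 and 3.27 CPM with MT, and GRIK2 (AT5G60550), a protein kinase gene, was at 21.1 and 22.9 CPM with IAA and at 31.0 and 31.5 CPM with MT. Their sum was 30.3 and 31.1 CPM with IAA and 33.7 and 34.8 CPM with MT. AT1G16858 was at 19.6 and 18.5 CPM with IAA and at 4.09 and 2.99 CPM with MT, and AT1G16860 at 20.5 and 22.1 CPM and at 37.2 and 39.7 CPM. Their sum was 40.1 and 40.6 CPM with IAA and 41.3 and 42.7 CPM with MT. The control libraries were themselves split for AT1G16858, at 2.17 and 17.2 CPM, with sums of 37.0 and 39.1 CPM.

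The same was seen within a group. AT3G53668 was at 19.4 CPM in IAA replicate 1 and 6.56 CPM in IAA replicate 2, and AT3G53670 at 2.93 and 18.3 CPM, with sums of 22.3 and 24.8 CPM. SAC51, a transcription factor gene, was at 4.49 and 14.6 CPM in the MT libraries and AT5G64342 at 41.2 and 26.2 CPM. With AT5G64341 they summed to 55.1 and 58.6 CPM with MT and to 61.8 and 61.8 CPM with IAA. AT5G60548, AT1G16858, AT3G53668, AT5G64341 and AT5G64342 have no entry in the gene table used here. How reads were assigned between these loci and their neighbours, or between AT3G25570 and AT3G25572, was not tested.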
